A study of Mus musculus with 6 samples.

Results

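The genes described here are 10 genes of the endoplasmic reticulum (ER): 9 encode proteins that fold or process other proteins inside it, and Xbp1 encodes a transcription factor that controls such genes. They are Hspa5, Hsp90b1, Calr, Canx, Pdia4, Pdia6, Manf, Creld2, Sdf2l1 and Xbp1. They were taken by name from a table of read counts for 49671 mouse genes, and each of the 10 had 1 matching identifier. The RNA came from LSK cells of BALB/c mouse bone marrow, the fraction without lineage markers and with Sca-1 and Kit, where blood stem cells and the first multipotent progenitors are found. Marrow enriched for such cells was infected with retrovirus carrying a short hairpin RNA, either against Cxxc5 (shCxxc5) or one that matches no mouse gene (shCtrl), and the infected LSK cells were sorted by their GFP. Each group had 3 libraries, numbered 2, 3 and 4 in both. Every library was made from cells pooled over several animals, whose age and number the labels do not give, nor do they give the time after infection. Nothing in the labels says whether a number stands for its own infection, and the p-values therefore speak of the spread among these 6 libraries, which may be technical.

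Proteins that will be secreted or placed in membranes enter the ER unfolded and are folded there by chaperones and by enzymes that form disulfide bonds. When unfolded protein accumulates, the sensors IRE1, PERK and ATF6 start the unfolded-protein response: IRE1 splices the Xbp1 messenger RNA, ATF6 is cut free as a transcription factor, and PERK slows translation and raises ATF4. XBP1 and ATF6 raise the genes of ER chaperones, while ATF4 raises genes of amino acid supply and stress. Blood stem and progenitor cells are known to be sensitive to this response, and precursors of granulocytes make large amounts of granule protein in the ER.

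The promoters are shown first because the genes were followed as one group, and most of them hold the same regulatory element. RefSeq promoters (GRCm38.p6, 250 bases before the transcript start and 50 from it on) were found for 9 of the 10 genes; Manf was not matched. The ER stress response element (ERSE), which ATF6 and NF-Y bind, is read as CCAAT and CCACG with 9 free bases between them. On either strand, this element stood in the promoters of 6 of the 9 genes, at 7 sites. It stood in 0.119% of all 32851 RefSeq promoters of the same length. The genes were taken by name as ER folding genes, a kind that ATF6 is known to raise. The difference from all promoters is therefore not independent evidence. Each site is printed 5′ to 3′ on the strand that reads CCAAT first, with 5 bases on both sides and CCAAT and CCACG in capitals.
Hspa5, chr2:34772020-34772048, plus strand: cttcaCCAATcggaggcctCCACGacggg
Hsp90b1, chr10:86705633-86705661, minus strand: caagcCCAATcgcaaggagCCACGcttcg
Hsp90b1, chr10:86705528-86705556, plus strand: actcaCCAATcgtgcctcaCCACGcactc
Calr, chr8:84847070-84847098, plus strand: atgggCCAATgagggtcgaCCACGcgttg
Canx, chr11:50325795-50325823, minus strand: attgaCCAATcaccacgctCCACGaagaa
Pdia6, chr12:17266486-17266514, plus strand: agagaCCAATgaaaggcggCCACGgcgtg
Creld2, chr15:88819515-88819543, minus strand: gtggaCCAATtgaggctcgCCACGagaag

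Counted from the RefSeq start, the first base of the sites lay between -212 (Hsp90b1) and -65 (Hspa5), and 4 lay on the strand of the gene and 3 on the opposite one. Pdia4, whose groups are compared below like the others, held no exact element but 1 with a single mismatch, from -108 to -90; such a match stood in 1.4% of all promoters and was looked for after the exact sites were seen. Sdf2l1 and Xbp1 held neither. The shorter core TGACGTG of the unfolded-protein response element (UPRE), which XBP1 binds, stood in the Hspa5 promoter alone among the 9, from -157 to -151, and in 2.01% of all promoters. Neither the element ERSE-II, read as ATTGG and CCACG with 1 free base between them (0.0365% of promoters), nor the amino acid response element that ATF4 binds, TGATGCAAT (0.192% of promoters), was found in any of the 9 on either strand. A match is a stretch of letters in this window and says nothing about binding in these cells. To show the setting, the stretch before the start is given for Calr and Canx, which have the element, and for Xbp1, which has none. Each ends where an annotated exon begins or at the RefSeq start, reads 5′ to 3′ in the direction of the gene, and carries exact ERSE letters in capitals; in Calr the element lies on the opposite strand and reads as its complement.
Calr, chr8:84846935-84847181, minus strand: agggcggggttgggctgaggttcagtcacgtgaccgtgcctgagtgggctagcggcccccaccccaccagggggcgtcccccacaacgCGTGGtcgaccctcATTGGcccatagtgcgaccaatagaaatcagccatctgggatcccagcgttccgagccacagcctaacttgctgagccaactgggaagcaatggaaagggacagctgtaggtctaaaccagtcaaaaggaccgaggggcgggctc
Canx, chr11:50325674-50325923, minus strand: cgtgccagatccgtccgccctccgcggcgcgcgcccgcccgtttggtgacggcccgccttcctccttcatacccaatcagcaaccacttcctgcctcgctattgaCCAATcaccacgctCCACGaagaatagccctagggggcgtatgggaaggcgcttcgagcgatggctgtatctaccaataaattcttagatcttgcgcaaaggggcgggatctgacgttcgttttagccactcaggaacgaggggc
Xbp1, chr11:5520391-5520640, plus strand: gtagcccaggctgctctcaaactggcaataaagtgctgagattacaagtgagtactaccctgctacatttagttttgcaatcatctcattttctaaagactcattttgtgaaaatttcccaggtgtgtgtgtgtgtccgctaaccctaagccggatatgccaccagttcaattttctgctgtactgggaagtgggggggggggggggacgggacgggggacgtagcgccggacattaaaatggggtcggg

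**Figure D1:**
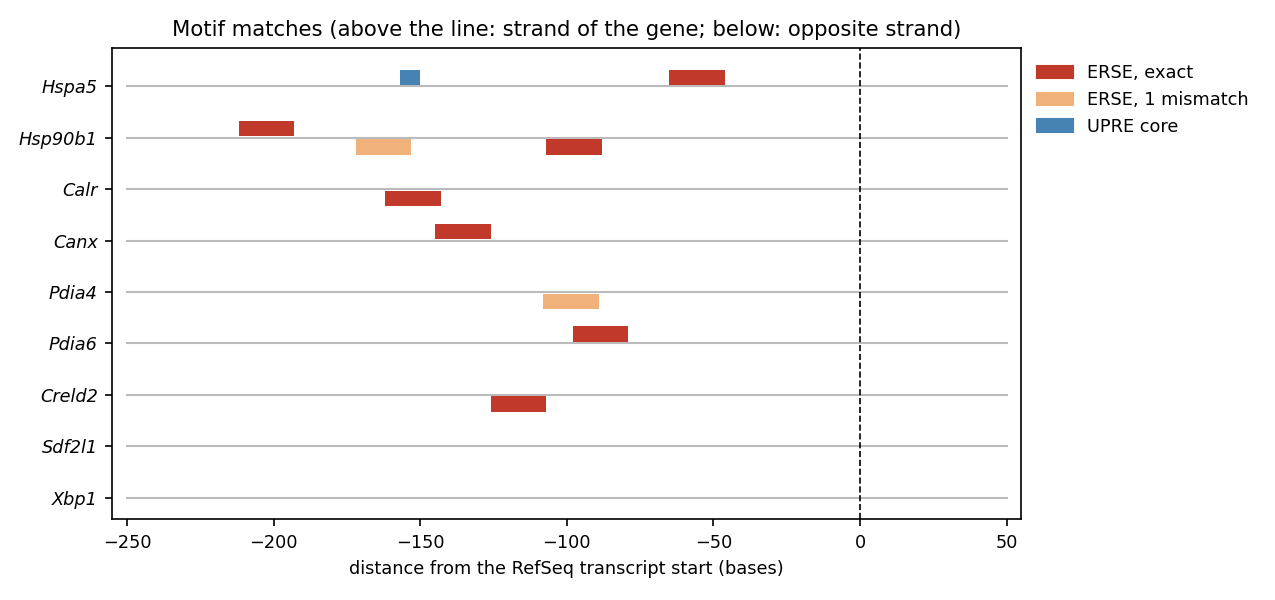
Matches to the ERSE, to the ERSE with 1 mismatch and to the UPRE core in the promoters of 9 genes; the x axis is the distance in bases from the RefSeq transcript start (dashed line). The 7 exact ERSE sites (red) lie before the start in 6 genes, and the rows of Sdf2l1 and Xbp1 are empty.

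Total counts were between 15002414 and 27754019 per library. Cxxc5 itself, the target of the hairpin, stood at 82.2, 59.9 and 57.9 CPM (counts scaled to a common library size by TMM, the trimmed mean of M-values) in shCtrl libraries 2, 3 and 4, and at 6.74, 17.4 and 17.9 CPM in shCxxc5 libraries 2, 3 and 4. The libraries numbered 2 stood apart from the other 4 in both groups: the sort marker gene Ly6a, which encodes Sca-1, was at 46.4 and 33.1 CPM in them and between 703 and 804 CPM in the others, while Kit lay between 82.4 and 110 CPM in all 6. The summed level of 12 interferon-stimulated genes was 391 and 354 CPM in libraries 2 and between 2655 and 2762 CPM in the others. For this reason the results on the 10 genes are given over all 6 libraries, in libraries 3 and 4 alone, and within each pair of equal number.

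In these bulk libraries fewer cells of a type and less RNA per cell cannot be told apart. Together the 10 genes held 0.455%, 0.549% and 0.548% of all counts in shCtrl libraries 2, 3 and 4, and 0.776%, 0.621% and 0.614% in shCxxc5 libraries 2, 3 and 4. All 3 shCxxc5 libraries were thus above all 3 shCtrl libraries. Levels per kilobase of exon sequence allow a rough comparison between genes. The length was that of all annotated exons of a gene merged, which can exceed the length of the transcripts present. On this scale the order of mean levels in shCtrl began with Calr at 393 ± 47.6 CPM per kb (SD, n = 3). Canx at 224 ± 24.2 and Hspa5 at 210 ± 14.2 CPM per kb followed and differed by less than their spread. Next came Xbp1 (149 ± 58.4), Hsp90b1 (147 ± 6.32), Pdia6 (129 ± 17.9) and Pdia4 (110 ± 22.2 CPM per kb); each of these neighbours differed by less than the larger of their SDs. Sdf2l1 stood at 77.7 ± 11.4 CPM per kb, and Manf (40.7 ± 0.352) and Creld2 (38.9 ± 5.98) were lowest and not apart from each other.

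Over all 6 libraries, 9 of the 10 genes had a higher level in shCxxc5 than in shCtrl within every pair of equal number, as did 19% of all genes tested. For 8 of the 10 the lowest shCxxc5 library lay above the highest shCtrl library, against 6.72% of all genes (13.1% had groups apart in either direction); Creld2 and Xbp1 were the ones whose groups overlapped. By the test across all genes, edgeR's quasi-likelihood test with Benjamini-Hochberg adjustment and a threshold of 0.05, 0 of the 10 passed, and 0% of 14637 genes did. Cxxc5, the target of the hairpin, did not pass it either (log2 fold change -2.25, SE 0.40, adjusted p 0.940 by edgeR). Not passing over all 6 libraries thus does not mean that a gene stayed level. At an unadjusted p under 0.05 stood 5 of the 10, against 3.93% of all genes in either direction and 1.78% in the higher direction; DESeq2, which called 0.131% of its genes, and limma-voom also called 0 of the 10. With the replicate number as a block in edgeR, 0 passed as well, and 7 of the 10 stood higher at an unadjusted p under 0.05, against 5.18% of all genes. The median of the 10 fitted log2 fold changes was 0.35, beside -0.02 over all genes tested.

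In libraries 3 and 4 alone, the same test called 9 of the 10 genes higher in shCxxc5 and did not call Xbp1. The 10 genes were chosen with earlier results of these data known. Their counts, here and over all 6 libraries, are therefore not independent evidence of their direction. The groups of these 9 genes were also apart in the 4 libraries, as were those of 27.8% of all genes in this direction. The test called 11% of 14193 genes higher and 9% lower there, that is 1555 higher of 2833 called. With library sizes as the only scaling, 1120 of 2726 called genes were higher, and the same number of the 10 genes, 9, was called. The median log2 fold change of the 10 was 0.19, against -0.00 (-0.0030) over all genes. The rises were small, from 1.10-fold for Pdia4 to 1.24-fold for Hspa5. Without shCtrl replicate 3 the count was 6 of 10, since Pdia4 (adjusted p 0.157), Creld2 (0.146) and Sdf2l1 (0.0648) no longer passed edgeR's test.

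**Figure D2:**
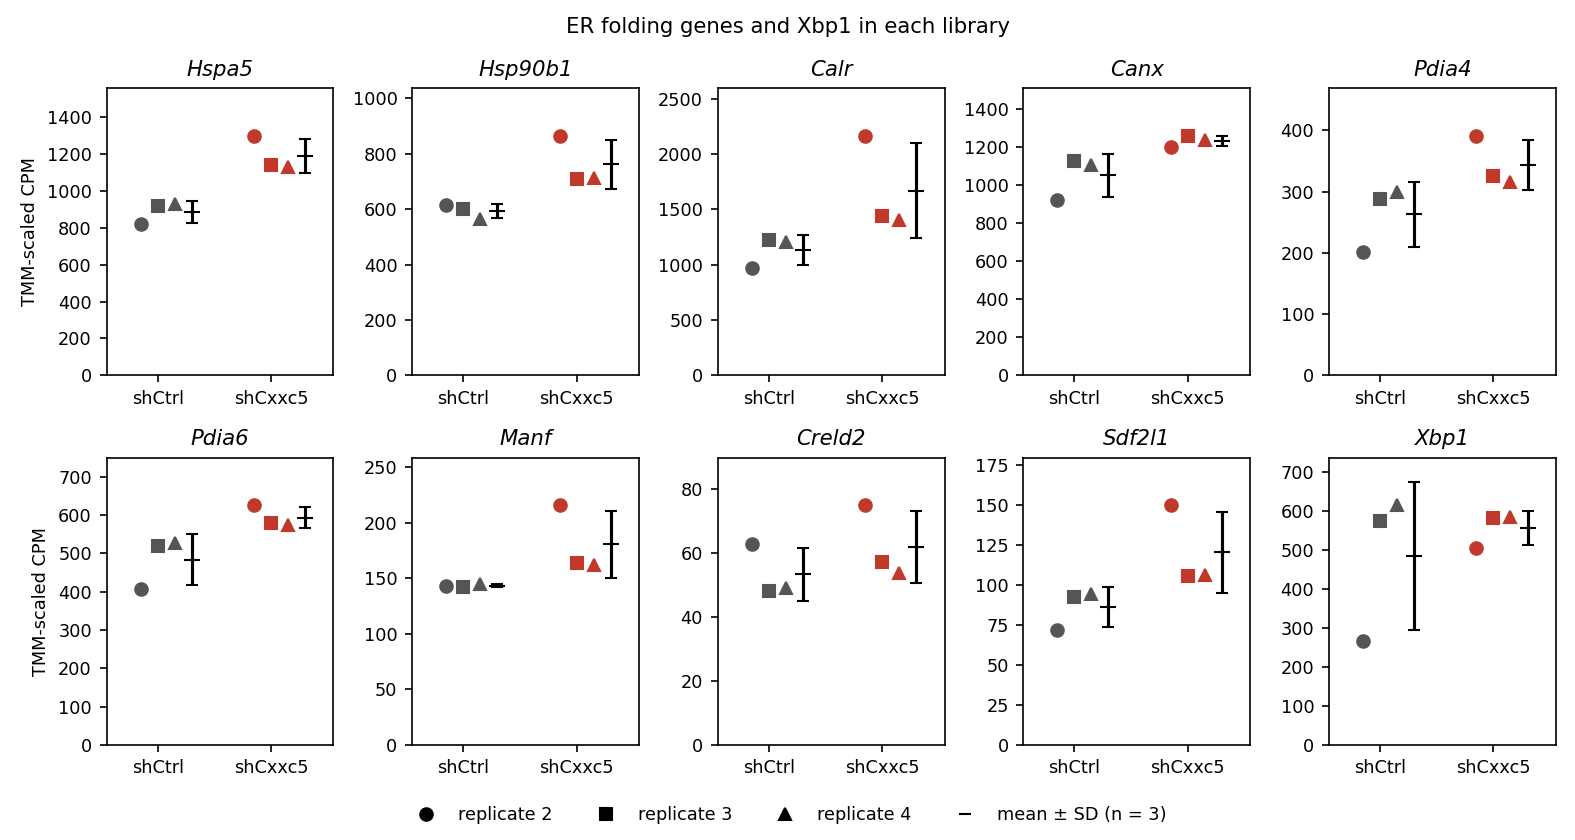
TMM-scaled CPM (y axis, from 0) of each gene in the 3 shCtrl (grey) and 3 shCxxc5 (red) libraries; symbols mark the replicate number, and black bars are mean ± SD (n = 3). In 8 of the 10 panels all red points lie above all grey ones, and in Xbp1 the grey point of replicate 2, at 267 CPM, is far below the other 5.

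Hspa5 encodes BiP, the Hsp70 chaperone of the ER, which also holds the stress sensors inactive. Its levels were 817, 916 and 926 CPM in shCtrl libraries 2, 3 and 4 and 1295, 1140 and 1131 CPM in shCxxc5 libraries 2, 3 and 4. The groups did not overlap, and the highest library was shCxxc5 replicate 2. The log2 fold change was 0.42 (SE 0.10) over all 6 libraries, with an adjusted p of 0.940 by edgeR, and 0.31 (SE 0.030) in replicates 3 and 4, with an adjusted p of 1.22e-08. Hsp90b1 encodes GRP94, the Hsp90 chaperone of the ER. It lay at 614, 600 and 564 CPM in shCtrl and at 863, 707 and 713 CPM in shCxxc5 libraries 2, 3 and 4, again with no overlap. Its log2 fold change was 0.36 (SE 0.11) over all libraries, which did not pass, and 0.29 (SE 0.034) in replicates 3 and 4, with an adjusted p of 2.09e-07 by edgeR. In the annotation, 217 exon bases of Hsp90b1 also belong to same-strand neighbours and 415 to an antisense gene, so its reads there may have been split or left out.

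Calr and Canx encode calreticulin and calnexin, the lectin chaperones that bind newly glycosylated proteins; the first is soluble and the second sits in the membrane. Calr lay at 974, 1220 and 1202 CPM in shCtrl and at 2163, 1438 and 1401 CPM in shCxxc5 libraries 2, 3 and 4. The shCxxc5 replicate 2 library was far above the others, and the corresponding shCtrl library was the lowest of the 6. Canx lay at 923, 1130 and 1107 CPM in shCtrl and at 1204, 1260 and 1240 CPM in shCxxc5, so that its groups were apart but its highest library was not shCxxc5 replicate 2. In replicates 3 and 4 both rose, Calr by a log2 fold change of 0.23 (SE 0.030) and Canx by 0.17 (SE 0.030), with adjusted p-values of 1.30e-06 and 0.000201 by edgeR. Over all 6 libraries Calr stood at 0.56 (SE 0.20) and Canx at 0.23 (SE 0.11), and neither passed. The quotient of Calr over Canx CPM was 1.06, 1.08 and 1.09 in shCtrl and 1.80, 1.14 and 1.13 in shCxxc5 libraries 2, 3 and 4.

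Pdia4 and Pdia6 encode protein disulfide isomerases, which form and rearrange disulfide bonds. Pdia4 lay at 202, 287 and 299 CPM in shCtrl and at 390, 325 and 315 CPM in shCxxc5 libraries 2, 3 and 4. The gap between the groups was narrow, from 299 to 315 CPM, both in replicate 4. Pdia6 lay at 407, 518 and 527 CPM in shCtrl and at 625, 580 and 575 CPM in shCxxc5. In replicates 3 and 4 Pdia4 rose by 0.13 (SE 0.036) and Pdia6 by 0.15 (SE 0.032) on the log2 scale, with adjusted p-values of 0.00881 and 0.00112 by edgeR. DESeq2 in these 4 libraries gave Pdia4 an adjusted p of 0.050, just above the threshold. Over all 6 libraries they stood at 0.39 (SE 0.18) and 0.29 (SE 0.12) and did not pass.

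Manf, Creld2 and Sdf2l1 encode smaller ER proteins that the unfolded-protein response is known to induce. MANF binds BiP, and SDF2L1 works in a complex with BiP and its partner encoded by Dnajb11. Manf lay at 143, 142 and 145 CPM in shCtrl, the tightest of the 10 genes, and at 216, 164 and 162 CPM in shCxxc5 libraries 2, 3 and 4. Sdf2l1 lay at 71.6, 92.5 and 94.2 CPM in shCtrl and at 150, 105 and 106 CPM in shCxxc5. Neither gene overlapped between the groups, and for both the highest library was shCxxc5 replicate 2. Creld2 lay at 62.6, 48.1 and 48.9 CPM in shCtrl and at 74.8, 57.2 and 53.5 CPM in shCxxc5; the shCtrl replicate 2 library was above shCxxc5 replicates 3 and 4. In replicates 3 and 4 Manf rose by 0.19 (SE 0.041), Sdf2l1 by 0.19 (SE 0.046) and Creld2 by 0.20 (SE 0.061) on the log2 scale, with adjusted p-values of 0.000898, 0.00381 and 0.0194 by edgeR. The Creld2 call was lost in DESeq2 (adjusted p 0.148). It was also lost when any of 3 single libraries was left out of edgeR's fit: shCtrl replicate 3 (0.146), shCtrl replicate 4 (0.0547) or shCxxc5 replicate 3 (0.273). For Manf, 14 exon bases also belong to a same-strand neighbour and 312 to antisense genes.

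Xbp1 did not follow the others. It lay at 267, 574 and 613 CPM in shCtrl and at 504, 580 and 583 CPM in shCxxc5 libraries 2, 3 and 4. The shCtrl replicate 2 library was the lowest by far, and without it the remaining 5 libraries lay between 504 and 613 CPM with the groups mixed. In replicates 3 and 4 the log2 fold change was -0.02 (SE 0.034) with an adjusted p of 0.695 by edgeR, and over all 6 libraries 0.20 (SE 0.31) with an adjusted p of 0.951. Counts per gene hold all forms of a transcript, so the spliced form of Xbp1, which encodes the active factor, was not measured here.

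The ratios within pairs of equal number show how far the pairs differed. In pair 2 the log2 ratio of shCxxc5 over shCtrl was between 0.26 for Creld2 (95% exact binomial interval 0.16 to 0.35) and 1.15 for Calr (1.13 to 1.17), with Sdf2l1 at 1.06, Pdia4 at 0.95 and Xbp1 at 0.92. These intervals cover counting error only. In pair 3 the ratios of the 9 folding genes lay between 0.16 for Canx and 0.32 for Hspa5, and Xbp1 was at 0.01 (-0.021 to 0.049). In pair 4 they lay between 0.074 for Pdia4 (0.015 to 0.13) and 0.34 for Hsp90b1, while Xbp1 was at -0.073 (-0.12 to -0.032). The median of the 10 was 0.64, 0.20 and 0.17 in pairs 2, 3 and 4, beside -0.038, -0.0086 and -0.0047 over all genes tested. The order of the genes was not the same in the pairs: Hspa5 led in pair 3 and Hsp90b1 in pair 4, whereas in pair 2 Hsp90b1, at 0.49, was below every gene but Canx (0.38) and Creld2.

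**Figure D3:**
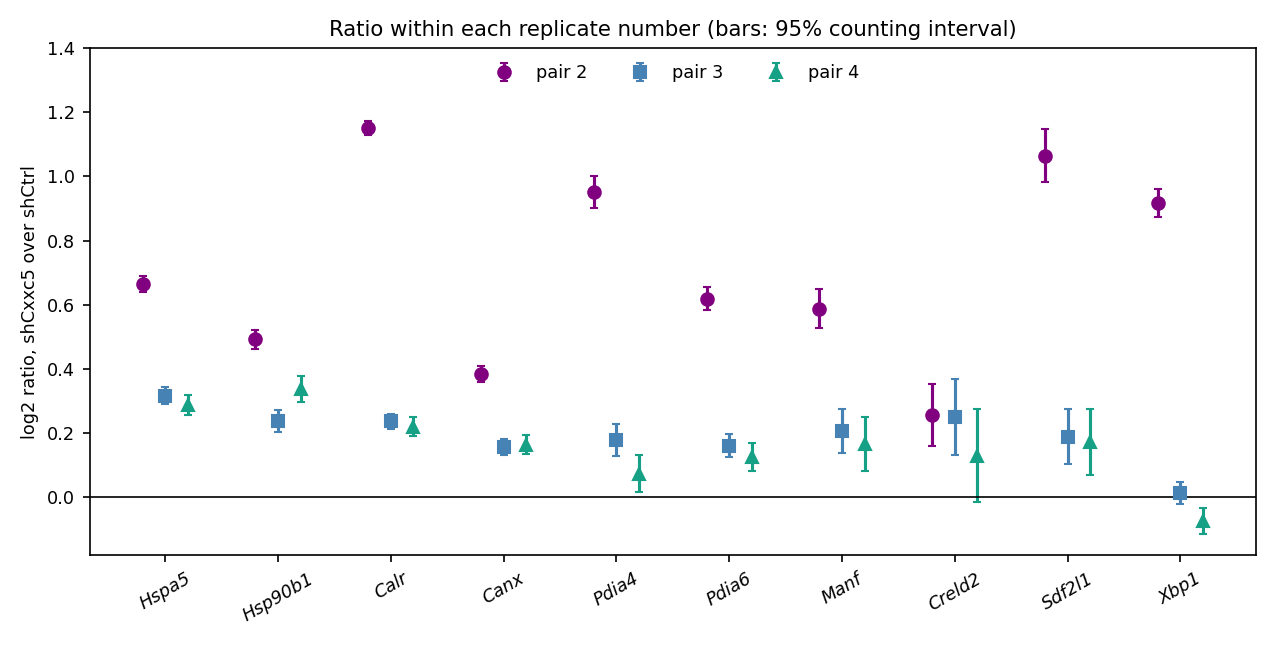
Log2 ratio of shCxxc5 over shCtrl (y axis) for each gene within pairs 2, 3 and 4; bars are 95% counting intervals. All 30 ratios are above 0 but that of Xbp1 in pair 4, and each gene has its highest ratio in pair 2, for Creld2 by less than its interval.

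Whether the ratio in pair 2 differed from that in pairs 3 and 4 was tested with a term for this difference in a fit over all 6 libraries. Its 2 residual degrees of freedom come from replicates 3 and 4 only, and the libraries numbered 2 are taken to vary as those do. It called 35.8% of all 14637 genes, 16.8% in the direction of a larger ratio in pair 2, and it called 9 of the 10 genes in that direction. The difference of log2 ratios was largest for Xbp1 (0.95, SE 0.062), Calr (0.92, SE 0.055), Sdf2l1 (0.88, SE 0.078) and Pdia4 (0.82, SE 0.064). It was 0.47 for Pdia6, 0.40 for Manf, 0.36 for Hspa5, 0.22 for Canx and 0.21 for Hsp90b1. Creld2 was the one not called, at 0.06 (SE 0.097), with an adjusted p of 0.682 by edgeR. The genes did not part in the same way inside the groups: relative to the mean of replicates 3 and 4 in log2 CPM, Xbp1 was at -1.15 and Pdia4 at -0.54 in shCtrl replicate 2, while Manf was at 0.00 (0.00073) and Creld2 at 0.37. In shCxxc5 replicate 2 the same difference was 0.61 for Calr, 0.50 for Sdf2l1, 0.43 for Creld2, 0.40 for Manf and -0.21 for Xbp1.

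Markers of other cell types also differed within the pairs, some in the direction of these ratios and some against it. Their part in the result was not tested. The granulocyte and monocyte progenitor list (10 genes, all with counts in every library) had a summed level between 840 and 1087 CPM in shCtrl and between 1253 and 5909 CPM in shCxxc5. The log2 ratio of that sum was 2.82, 0.26 and 0.21 in pairs 2, 3 and 4. In pair 2 the granule protein gene Mpo went from 360 to 2914 CPM and Elane from 57.9 to 385 CPM. Other genes of the list were lower there: Csf1r went from 47.3 to 25.9, Irf8 from 28.9 to 25.9 and Ly86 from 3.13 to 2.81 CPM. The median log2 ratio of the single genes in pair 2 was 2.43. In replicates 3 and 4, 4 of the 10 markers rose and 1 fell by edgeR's test, against 11% and 9% of all genes: Prtn3 had a log2 fold change of 0.53, Ms4a3 of 0.27, Irf8 of 0.18, Mpo of 0.16 and Csf1r of -0.24, while Elane (0.01) and Ctsg (-0.11) did not pass; the median over the list was 0.05. The mast cell and basophil list (8 genes, all with counts in every library) summed to between 300 and 405 CPM in shCtrl and between 400 and 1709 CPM in shCxxc5. Its log2 ratios were 2.51, 0.089 and -0.019 in pairs 2, 3 and 4. The largest part of that sum was Cpa3, at 210 and 218 CPM in shCtrl and 205 and 188 CPM in shCxxc5 libraries 3 and 4. By edgeR's test in replicates 3 and 4, 3 of the 8 genes rose, 2 fell and 3 did not pass. The median log2 fold change over this list was 0.16.

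The megakaryocyte list went the other way and was far higher in the libraries numbered 2. Its 10 genes summed to 6910, 487 and 485 CPM in shCtrl and to 1635, 309 and 300 CPM in shCxxc5 libraries 2, 3 and 4. The log2 ratios of that sum were -2.08, -0.66 and -0.69 in pairs 2, 3 and 4. The erythroid list (8 of 10 genes with counts in every library) summed to between 524 and 824 CPM in shCtrl and between 582 and 1356 CPM in shCxxc5, with log2 ratios of 0.72, 0.23 and 0.10. The sum and the single genes of that list went different ways in replicates 3 and 4, where 1 of its 7 tested genes rose and 4 fell, with a median of -0.48. The B and plasma cell list summed to between 65.5 and 85.8 CPM in shCtrl and between 57.0 and 104 CPM in shCxxc5, with log2 ratios of -0.20, 0.26 and 0.27 in pairs 2, 3 and 4. Most of that sum came from Ighm, which lay at 49.3, 50.5 and 52.7 CPM in shCtrl and at 41.0, 70.5 and 70.8 CPM in shCxxc5 libraries 2, 3 and 4, and from Cd79b. Of 3 genes of this list tested in replicates 3 and 4, 1 rose (Ighm, 0.46, SE 0.057) and 2 did not pass. The plasma cell genes Mzb1 and Jchain were at or under 0.202 and 1.36 CPM in every library, and the B cell gene Cd79a at or under 0.202 CPM. The T and NK cell list had 5 of 10 genes with counts in every library and Cd3e at 0 in all, and it summed to between 25.2 and 63.9 CPM, carried by Nkg7. The list of stem and multipotent progenitor genes summed to 1701 and 1191 CPM in libraries 2 of shCtrl and shCxxc5, and to between 2579 and 2668 CPM in the others. Its single genes went different ways. Ly6a, Cd34, Flt3 and Hoxa9 were lower in both libraries 2 than in all others. Slamf1, Procr, Hlf and Meis1 were higher there, while Kit and Mecom overlapped. Cd34 stood at 755 and 513 CPM in libraries 2 of shCtrl and shCxxc5, and between 1066 and 1155 CPM in the others. Slamf1 stood at 121 and 48.1 CPM against 13.46 to 17.96 CPM.

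**Figure D4:**
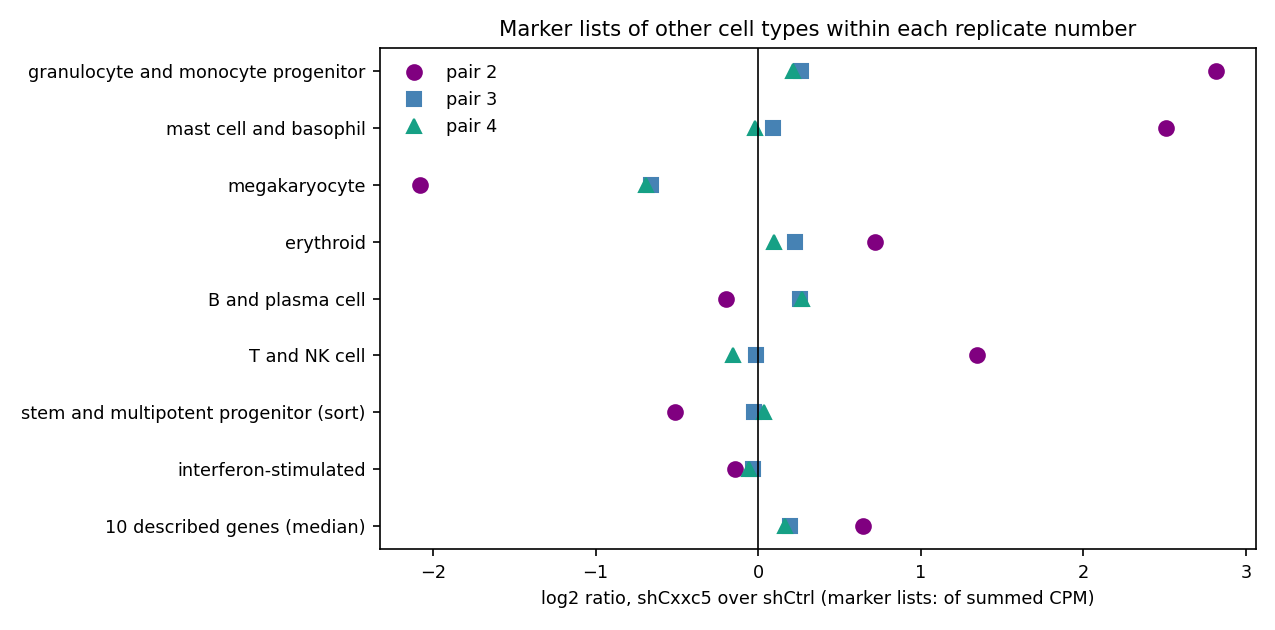
Log2 ratio of shCxxc5 over shCtrl (x axis) of the summed CPM of 8 marker lists, and of the median of the 10 genes, within pairs 2, 3 and 4. The granulocyte list stands at 2.82 in pair 2 and at 0.26 and 0.21 in the others, the 10 genes at 0.64, 0.20 and 0.17.

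The wider set of ER folding genes was mixed in replicates 3 and 4. Of 30 tested, 6 rose, 4 fell and 20 did not pass edgeR's test, against 11% higher and 9% lower over all genes, with a median log2 fold change of 0.02. Within the pairs the median was 0.33, 0.00 (0.0035) and 0.00 (0.0027) in pairs 2, 3 and 4, and over all 6 libraries it was 0.13 with 0 genes called, as in each of the 4 lists that follow. The genes named from this list had the largest changes among those that passed with an average log2 CPM of at least 1. Dnajb11, the partner of BiP and SDF2L1, rose by 0.34 (SE 0.045), the chaperone-like Erp29 by 0.27 (SE 0.035) and Pdia3, the disulfide isomerase that works with the lectin chaperones, by 0.22 (SE 0.033). Pdia3 had a log2 ratio of 0.58 in pair 2. Within the pairs Dnajb11 had log2 ratios of 0.39, 0.29 and 0.39 and Erp29 of 0.27, 0.27 and 0.26 in pairs 2, 3 and 4. For these 2 genes the difference between pair 2 and the other pairs did not pass (adjusted p 0.632 and 0.960 by edgeR). Ero1l, which encodes the oxidase that recharges disulfide isomerases and is also an ATF4 target, fell in replicates 3 and 4 with a log2 fold change of -0.37 (SE 0.042), while its ratio in pair 2 was 1.02.

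Most genes of the machinery around folding did not pass. Of 19 tested genes of ER-associated degradation, which exports misfolded proteins for destruction, 1 rose, 3 fell and 15 did not pass, against 11% higher and 9% lower over all genes, with a median of -0.04 (all 6 libraries, 0.03). Herpud1 fell with a log2 fold change of -0.66 (SE 0.045) and Rnf5 with -0.41 (SE 0.12; -0.91 in pair 2). Vcp, the segregase that pulls proteins from the membrane, rose by 0.22 (SE 0.042) in replicates 3 and 4, but its log2 ratio in pair 2 was -0.11. That difference between the pairs was -0.33, with an adjusted p of 0.000321 by edgeR, and over all 6 libraries Vcp stood at 0.11 (SE 0.093) and did not pass. Herpud1 lay at 229, 149 and 160 CPM in shCtrl and at 189, 97.5 and 96.6 CPM in shCxxc5 libraries 2, 3 and 4, so it was lower within each pair. Of 23 tested genes of protein translocation and N-glycosylation, 1 rose (Ssr1, 0.23, SE 0.033; 0.68 in pair 2), 0 fell and 22 did not pass, with a median of 0.04 (all 6 libraries, 0.11; pair 2, 0.26).

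Among 8 genes of sensors, related factors and their proteases, 0 rose, 3 fell and 5 did not pass in replicates 3 and 4, against 11% higher and 9% lower over all genes. Within every pair 4 of the 8 were lower, as were 22.4% of all genes. Ern1, which encodes IRE1, had a log2 fold change of -0.26 (SE 0.048, adjusted p 0.000173 by edgeR), Atf6 of -0.20 (SE 0.046, adjusted p 0.00232) and Creb3l2 of -0.73 (SE 0.19, adjusted p 0.00649). Ern1 lay at 117, 115 and 111 CPM in shCtrl and at 96.5, 91.0 and 97.1 CPM in shCxxc5 libraries 2, 3 and 4, and Atf6 at 146, 127 and 119 against 112, 105 and 109 CPM. Neither gene overlapped between the groups, as in 6.35% of all genes in this direction, and over all 6 libraries neither passed (adjusted p 0.940 for both by edgeR). Eif2ak3, which encodes PERK, stood at 0.03 (SE 0.072) and did not pass. In the ATF4 arm, 22 of 22 genes fell in replicates 3 and 4, against 9% of all genes, with a median of -0.74 and the lowest values in Slc7a11 (-2.29), Aldh1l2 (-2.04), Nupr1 (-1.85) and Chac1 (-1.84). Pair 2 differed: the median log2 ratio of the list was -0.42 there, and 17 of the 22 genes were lower in every pair. In pair 2 Slc7a11 stood at -0.60, Nupr1 at -1.13, Chac1 at -0.43 and Aldh1l2 at 0.20, and over all 6 libraries the median of the list was -0.67. Atf4 itself lay at 720, 598 and 612 CPM in shCtrl and at 759, 381 and 391 CPM in shCxxc5 libraries 2, 3 and 4. It fell in replicates 3 and 4 (-0.64, SE 0.033), and its log2 ratio was 0.08 in pair 2. The list of this arm was drawn up with earlier results of these libraries known, so its count is not independent evidence of its direction.

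**Figure D5:**
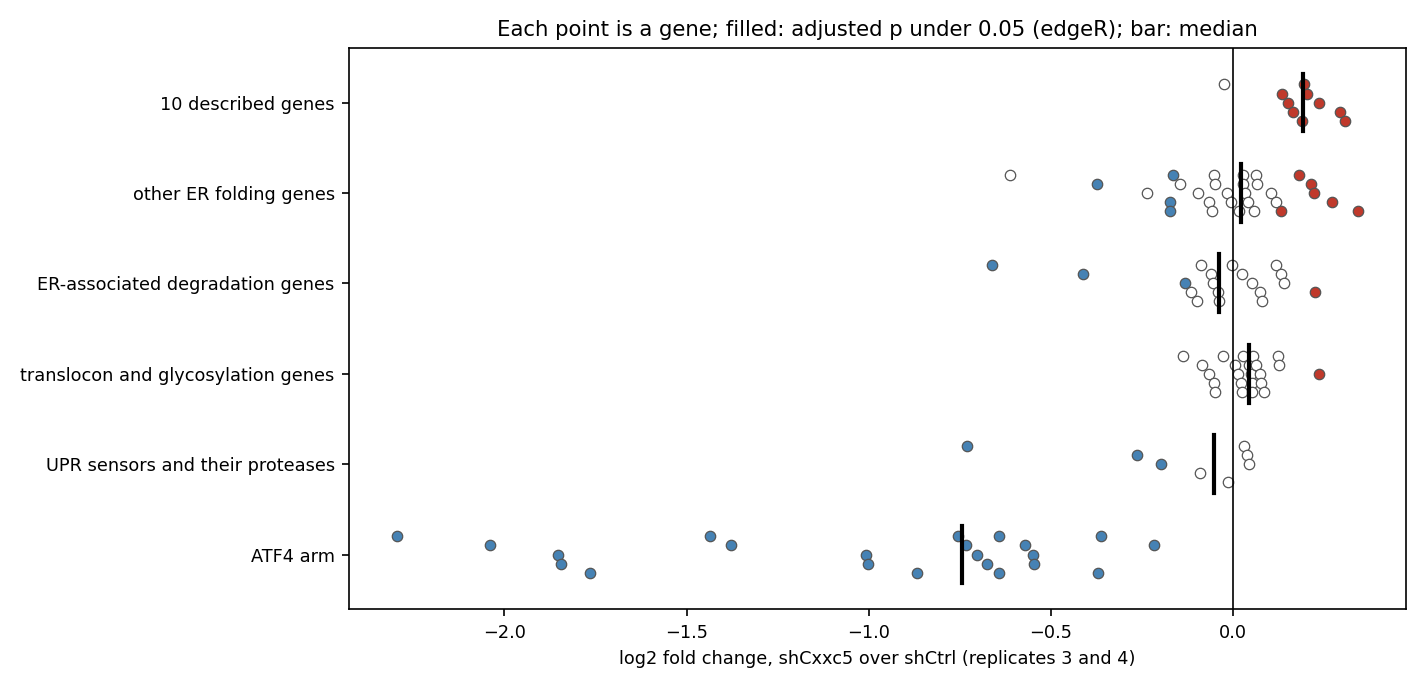
Log2 fold change (x axis) of every tested gene of 6 groups in replicates 3 and 4; filled points passed edgeR's test (red higher, blue lower), open points did not, and black bars are medians. The bar of the 10 described genes is at 0.19 and that of the ATF4 arm at -0.74, with the 4 other groups between -0.05 and 0.04.

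The element in the promoters was not shared by rising genes alone. Of 37 genes with an exact ERSE in any RefSeq promoter, 17 were tested in replicates 3 and 4. The 6 that are among the genes described here rose, and of the other 11, 0 rose, Acacb fell (-0.52, SE 0.12) and 10 did not pass edgeR's test, against 11% higher and 9% lower over all genes. Among those 10 were known genes of the response: Dnajc3, a partner of BiP (0.03, SE 0.042), Syvn1, the ubiquitin ligase of ER-associated degradation (0.05, SE 0.11), and Ero1b, an oxidase (-0.24, SE 0.13). Not passing does not mean that a gene stayed level: Adcy3 stood at 0.20 (SE 0.075, adjusted p 0.0526 by edgeR) and Zfp57 at 0.23 (SE 0.23). The median was -0.05 over the 11 and 0.22 over the 6. Most of the 11 had a larger SE than any of the 6 (at most 0.061, Creld2), and so were less able to pass at such changes. All genes named from the 11 were chosen with their values in view. Conversely Sdf2l1 rose without an exact or mismatched ERSE in its window.

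The genes whose profile over the 6 libraries was nearest to that of Hspa5 were sought among 9759 other genes with an average log2 CPM of at least 3, by the Euclidean distance of log2 CPM after each gene's own mean was removed. Among the nearest were Uhmk1 (distance 0.079), Nagpa (0.083), D230025D16Rik (0.11) and Crip1 (0.15). Uhmk1 lay at 142, 158 and 159 CPM in shCtrl and at 221, 186 and 196 CPM in shCxxc5 libraries 2, 3 and 4. Among the described genes Pdia6 was nearest to Hspa5 (0.22; 0.359% of the 9759 were nearer), followed by Hsp90b1 (0.24), Manf (0.26), Pdia4 (0.31), Sdf2l1 (0.31), Canx (0.32) and Calr (0.39). Creld2 (0.55) and Xbp1 (0.88) were farther, with 26.1% and 70.7% of the 9759 nearer than they were.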

How the data were processed

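RNA of sorted, infected LSK cells was sequenced in 6 libraries, 3 per group. The deposited values are raw read counts per Ensembl gene. Per the submitters' processing notes, the authors aligned with STAR 2.5.2b to GRCm38, counted with featureCounts 1.5.1 and used DESeq2. Which annotation release and strand setting they counted with is not given in the sources used here. Symbols and exon lengths came from GENCODE M21 (GRCm38; 49326 of 49671 identifiers matched), promoters from RefSeq (GRCm38.p6).

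The test was that of edgeR 4.0.16, under R 4.3.3 (filterByExpr, TMM, robust quasi-likelihood test, group alone), over all 6 libraries (14637 genes) and over replicates 3 and 4 (14193 genes). P-values were adjusted by Benjamini-Hochberg over all genes tested. Log2 CPM had a prior count of 2, and standard errors (SE) are the absolute log2 fold change over the square root of F. Alternatives used DESeq2 1.42.0, limma 3.58.1 (voom), other scalings and filters, a replicate block and leaving out each library. The code was tested on simulated counts.

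The labels number libraries 2, 3 and 4 in both groups. Deviations from group means correlated across genes at 0.670, 0.554 and 0.489 within numbers, each over 0.1. The numbers were therefore used for the ratios within pairs and for the replicate block, while the main test used group alone. Across numbers 3 and 4 the correlations were 0.489 and 0.475, so these values set the libraries numbered 2 apart and do not tell pair 3 from pair 4. Replicates 3 and 4 of a group differed by more than sampling noise (chi-square per degree of freedom 2.29 in shCtrl and 2.24 in shCxxc5).

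The 10 genes and all lists were chosen with earlier results of these data known. Named besides the 10 and Cxxc5 were, per list, up to 4 genes of largest change among those that passed in replicates 3 and 4 with an average log2 CPM of at least 1, then Ern1, Eif2ak3, Atf6 and Atf4, and the 5 nearest to Hspa5. Of the genes this rule names, 2 are not reported here. Marker genes given by value were named after their values were seen.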

Additional observations from a re-analysis of the deposited data

Results flagged for a closer look

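For 9 of the 10 genes the log2 ratio of shCxxc5 over shCtrl in the pair numbered 2 was larger than in pairs 3 and 4, past the threshold of edgeR's test of that difference. The same test called 35.8% of all genes tested in either direction, and 16.8% of all genes tested were called with a larger ratio in pair 2. Its 2 residual degrees of freedom come from replicates 3 and 4 only. The difference was 0.95 for Xbp1, 0.92 for Calr, 0.88 for Sdf2l1 and 0.82 for Pdia4. It was 0.47 for Pdia6, 0.40 for Manf, 0.36 for Hspa5, 0.22 for Canx and 0.21 for Hsp90b1. Other log2 ratios also differed between pair 2 and pairs 3 and 4. That of the granulocyte and monocyte progenitor sum was 2.82 against 0.26 and 0.21. The mast cell and basophil sum had 2.51 against 0.089 and -0.019, and the megakaryocyte sum -2.08 against -0.66 and -0.69. Cxxc5 itself stood at -3.59 against -1.77 and -1.69. The part of any of these in the difference was not tested.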

How the results depend on the processing

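Over all 6 libraries edgeR called 0 genes, and 0 of the 10, also with the replicate block; DESeq2 called 19 genes and, with the block, a setting chosen after seeing the data, 147, but again 0 of the 10. The block changed no call of the 10 genes; in replicates 3 and 4 it gave 3300 called genes and again 9 of the 10. In those libraries DESeq2 called 1353 genes instead of 2833, and 7 of the 10. Leaving out 1 library there gave between 1507 genes (without shCxxc5 replicate 3) and 2043 (without shCtrl replicate 4), and between 6 and 9 of the 10; without shCtrl replicate 3 it was 1539 and without shCxxc5 replicate 4 it was 1772. The lone library left in a group is then assumed to vary like the others. The sign of Xbp1 was not stable. Over all libraries its log2 fold change ran from -0.096 (without shCtrl replicate 2) to 0.41 when 1 was left out, in replicates 3 and 4 from -0.076 to 0.023, and its pair 3 ratio was -0.0024 with upper quartile and -0.011 with library size scaling. The cause of these changes was not tested, except that leaving out libraries removes samples. All other log2 fold changes of the 10 genes kept their direction under the alternatives run. Their size over all 6 libraries depended on the libraries numbered 2: without shCxxc5 replicate 2, Creld2 went from 0.22 to 0.06, Calr from 0.56 to 0.33, Manf from 0.33 to 0.19 and Sdf2l1 from 0.49 to 0.30. Without shCtrl replicate 2, Pdia4 went from 0.39 to 0.23, Pdia6 from 0.29 to 0.18, Canx from 0.23 to 0.14 and Creld2 to 0.35. With 2 libraries per group and folds of 1.10 to 1.24, the calls rest on the small spread between replicates 3 and 4 (biological coefficient of variation 0.0294, against 0.312 over all 6 libraries).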

Other observations

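2 of the ERSE sites shown stand between a pair of genes and lie in the RefSeq promoters of both. The Creld2 site is shared with Alg12, which encodes a mannosyltransferase of N-glycan assembly; in replicates 3 and 4 Creld2 had a log2 fold change of 0.20 (SE 0.061) and Alg12 of -0.11 (SE 0.12), which did not pass edgeR's test. The Calr site is shared with 1700122E12Rik, which stood at -0.80 (SE 0.45) and did not pass, beside 0.23 (SE 0.030) for Calr. These neighbours were looked at after the sites were found, and the difference within each pair of genes was not tested.

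The proportions of the most abundant chaperones are given as values, with no test. The quotient of Hspa5 over Canx CPM was 0.886, 0.810 and 0.837 in shCtrl and 1.08, 0.905 and 0.912 in shCxxc5 libraries 2, 3 and 4, and that of Hsp90b1 over Hspa5 was 0.751, 0.655 and 0.609 against 0.666, 0.620 and 0.631. Calr made up 28.9% of the counts of the 10 genes in shCxxc5 replicate 2 and between 21.7% and 22.6% in the other 5 libraries.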
